A study of Homo sapiens with 4 samples.

Results

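The matrix metalloproteinases (MMPs), their tissue inhibitors (TIMPs) and the ADAM, ADAMTS and ADAMTS-like genes were examined in Huh7, a human liver cancer line that has long been in culture. Members were taken by name from the RefSeq mRNA rows of the deposited transcript tables: MMP, TIMP or ADAM followed by digits alone, or any name that begins with ADAMTS. This gave 70 genes of 42067 in the tables, namely 22 MMPs, 4 TIMPs, 20 ADAMs, 19 ADAMTS and 5 ADAMTS-like genes. They filled 102 transcript rows, and each gene was read from its row of highest total count. Of the 70 members, 54 averaged at least 10 reads over the libraries and were tested, and 16 lay under that limit, with 4 to 39 reads in all 4 libraries together.

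One group received mock medium and the other medium with 300 µM hydrogen peroxide (H2O2), both for 4 days with a daily change of medium. Each group had 2 libraries, titled with the letter H or Q, a pair of letters that the labels do not explain. Nothing in the labels says that the 2 libraries of a group came from separate cultures, so the tests below measure the spread between these libraries, which may be technical. Both groups are the same cell line, with no transgene or deletion named. Between 78126878 and 88409567 read mates were mapped per library. Members took 0.0938% of the reads in mock H, 0.141% in mock Q, 0.102% in H2O2 H and 0.121% in H2O2 Q. Most hepatocyte markers were abundant throughout, with the albumin gene ALB at 2561 to 9130 CPM (the usual depth-scaled read count, with TMM factors). Lower were TTR, at 14.8 to 25.9 CPM, and APOH, at 8.52 to 55.9 CPM. The 10 hepatocyte markers summed to 18562 CPM in mock library H and 5993 in mock library Q, against 21564 and 12391 in H2O2. Endothelial markers summed to 2.93 to 4.95 CPM, with CDH5, ERG and KDR under the read limit. Markers of fibroblasts summed to 41.9 to 60.7 CPM, most of it COL1A1 and PDGFRA, while POSTN had 0 to 3 reads. Blood cell markers summed to 472 to 675 CPM, nearly all LYZ and CD68, while HBB had 0 to 2 reads and PTPRC 5 to 33.

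MMPs are zinc proteases that are made as inactive proenzymes and cleave collagens and other matrix proteins, and TIMPs bind and block their active site. ADAMs are membrane-bound relatives, of which some shed the outer parts of growth factors and receptors and others have lost the catalytic site and act in adhesion. ADAMTS enzymes are secreted and process procollagens, proteoglycans and von Willebrand factor, whereas ADAMTS-like proteins lack the protease part. In liver these families are known for the turnover of matrix during fibrosis and for tumour invasion.

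Membrane-bound proteases dominated the levels in Huh7. To compare genes, CPM was divided by transcript length in kb, with lengths from GENCODE v29 for 68 of the 70 members. Highest was ADAM9, a sheddase, with 60.2 CPM per kb in mock H, 98.7 in mock Q, 72.4 in H2O2 H and 95.8 in H2O2 Q. Next by mean level per kb came MMP15 (20.7), MMP14 (20.4) and the adhesion protein gene ADAM23, which ran from 14.4 to 23.8 over the libraries. They were followed by ADAM15 (15.9), ADAM10 (14.7) and ADAM17 (10.8). The spread between libraries does not separate MMP15, MMP14 and ADAM23 from each other. The 6 membrane-type MMPs made up between 77.1% and 85.7% of the summed MMP level per kb in the 4 libraries. Among inhibitors TIMP2 had a mean of 7.51 CPM per kb and TIMP3 6.63, with TIMP4 at 3.57. Secreted collagenases, gelatinases and stromelysins were low by comparison, apart from MMP11.

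**Figure D1:**
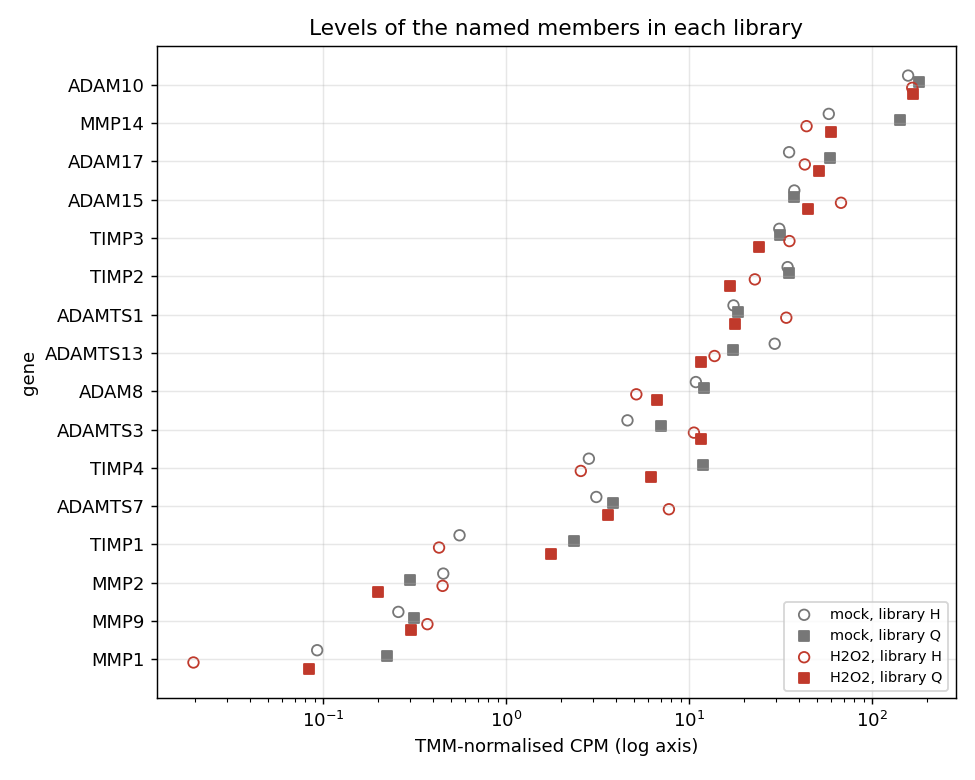
TMM-normalised CPM on a log axis for 16 members in each of the 4 libraries (circles are libraries H, squares libraries Q, grey is mock, red is H2O2). Both H2O2 values of TIMP2, ADAM8 and ADAMTS13 lie to the left of both mock values, and those of ADAMTS3 to the right, while TIMP1 and TIMP4 separate by letter.

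The comparison of H2O2 with mock asked which of these genes differ in RNA level after 4 days of peroxide. The inhibitor TIMP2 and the proteases ADAM8 and ADAMTS13 were lower in both H2O2 libraries than in either mock library, and the procollagen protease ADAMTS3 was higher in both. None of the 54 tested members passed edgeR's quasi-likelihood test at an adjusted p of 5% over 27263 genes, where the share called was 0%. At an unadjusted p under 0.05 there were 3 members on the lower side (ADAM8, ADAMTS13 and TIMP2, against 3.7% of all genes tested) and 1 on the higher side (ADAMTS3, against 3.16%). DESeq2 also called 0 members, with 5 at an unadjusted p under 0.05 (9.26%, beside 7.04% of all genes), the fifth being MMP14. Because these are bulk libraries, fewer cells that express a gene and less of its RNA per cell cannot be told apart.

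Without overlap between the groups, 9 members were lower in H2O2 (16.7%, beside 21.4% of all genes) and 5 were higher (9.26%, beside 18.2%). These shares lie under those of all genes. The 9 lower members were ADAM8, ADAM22, ADAMTS4, ADAMTS13, MMP1, MMP19, MMP21, MMP24 and TIMP2, and the 5 higher were ADAM15, ADAM23, ADAMTS3, ADAMTS10 and ADAMTS18. On the deposited FPKM values the split turned, with 6 lower (11.1%) and 10 higher (18.5%), and it turned over all genes as well (16.1% lower and 20.9% higher). The median log2 fold change of H2O2 over mock was −0.05 over the tested members and −0.03 over all genes tested. By sign alone 33 members were lower with edgeR (61.1%, beside 52.8% of all genes) and 28 with DESeq2 (51.9%, beside 50.1%). On FPKM with a pseudocount of 1, 25 were lower (46.3%, beside 46.9%), and without mock library Q 20 were lower (37.0%, beside 50.0%).

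**Figure D2:**
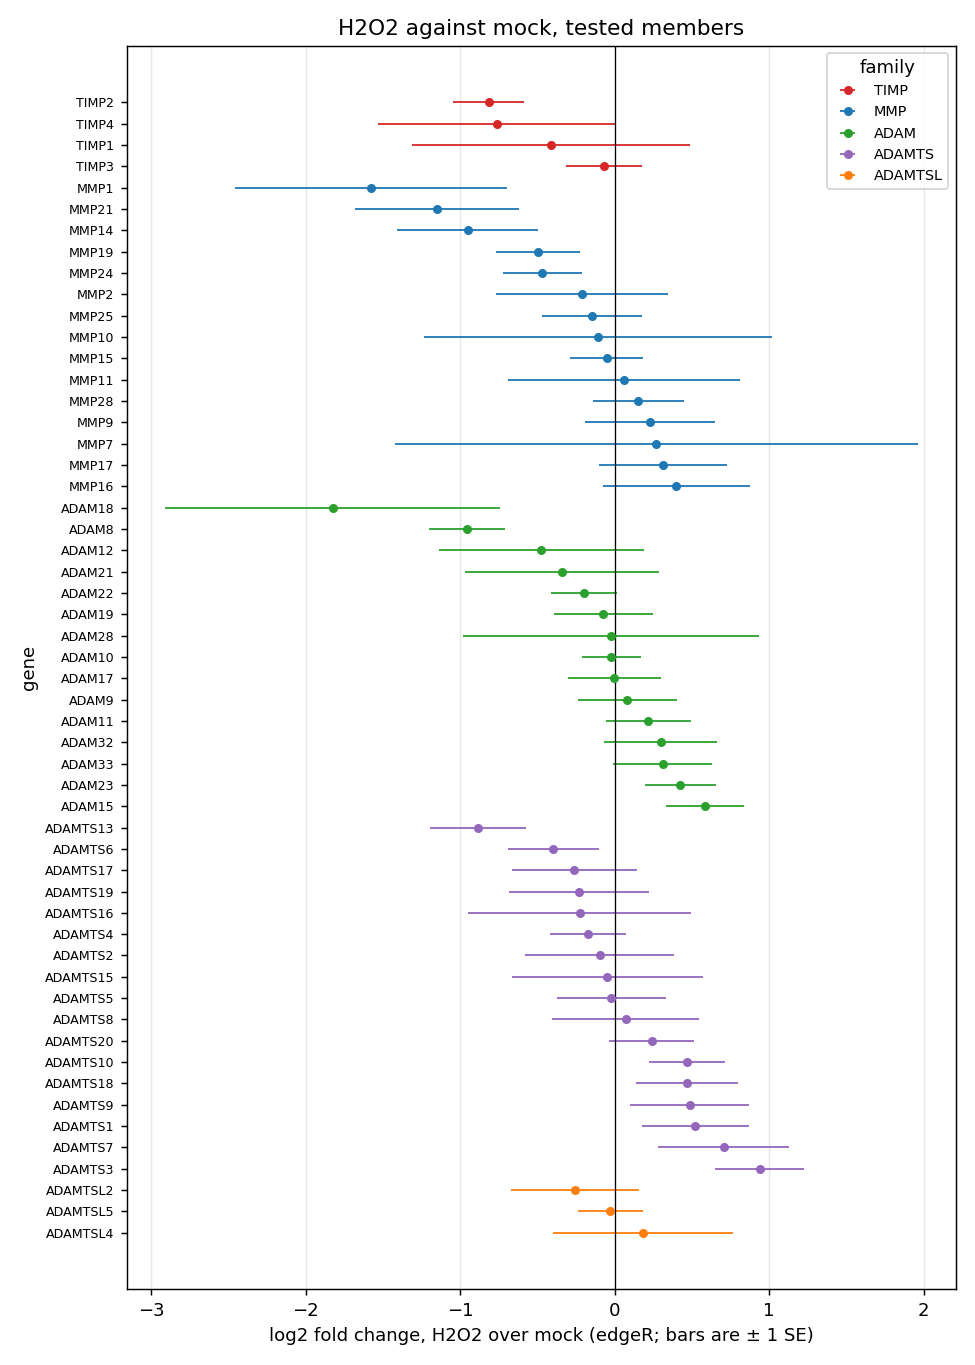
Log2 fold change of H2O2 over mock for the 54 tested members by family, with bars of ± 1 SE from edgeR. The 4 TIMPs lie below 0, from −0.82 (TIMP2) to −0.07 (TIMP3), although TIMP3 turned on FPKM and TIMP1 and TIMP4 without mock library Q, and wide bars mark genes such as MMP7 whose 2 libraries of a group differ.

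The TIMPs differed among themselves. TIMP2 on chromosome 17, an inhibitor that also helps membrane-bound MMP14 to activate MMP2, stood at 34.6 CPM in mock library H and 35.3 in mock library Q. Its H2O2 values were 22.9 CPM in library H and 16.8 in library Q. The groups did not overlap, and the mock values lay close together. The log2 fold change was −0.82 (SE 0.23, n = 2 per group, adjusted p = 0.717), and it was −0.59 between the H libraries and −1.07 between the Q libraries. Leaving out 1 library at a time gave values from −1.06 to −0.60.

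TIMP3 on chromosome 22, which binds to matrix and also blocks ADAM17, had 31.2 CPM in mock H and 31.3 in mock Q. Its H2O2 libraries lay on either side, at 35.4 CPM in H and 24.1 in Q (−0.07, SE 0.25, adjusted p = 0.948). TIMP4 on chromosome 3 measured 2.84 CPM in mock H, 12.0 in mock Q, 2.56 in H2O2 H and 6.17 in H2O2 Q. Both Q libraries stood above both H libraries, and the treated groups overlapped (−0.76, SE 0.77, adjusted p = 0.822). Without mock library Q the value of TIMP4 was 0.62. TIMP1 on the X chromosome, a secreted inhibitor of most MMPs, had 0.557 and 0.431 CPM in the mock and H2O2 H libraries and 2.35 and 1.76 CPM in the Q libraries (−0.41, SE 0.90, adjusted p = 0.911). It too was ordered by letter, and without mock library Q its value was 0.97. In the RefSeq table of GRCh38.p14, TIMP1, TIMP3 and TIMP4 each overlap a synapsin gene (SYN1, SYN3 and SYN2) and TIMP2 overlaps CEP295NL. Use of strand in the counting was not given, so reads of overlapping genes may be mixed. Of all 70 members, 39 overlap another gene in that table.

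MMP14, MMP15 and the other membrane-type MMPs carried most of the MMP reads. MMP14 on chromosome 14, a collagenase at the cell surface, measured 58.1 CPM in mock library H and 142 in mock library Q. In H2O2 it stood at 43.9 CPM in H and 59.7 in Q, so that H2O2 library Q slightly exceeded mock library H. The log2 fold change was −0.95 (SE 0.46, adjusted p = 0.719), with −0.40 between H libraries and −1.25 between Q libraries. Mock library Q weighed on this value, which was −0.17 without it. MMP15 had 88.4 and 90.3 CPM in mock H and Q and 102 and 70.8 CPM after H2O2 (−0.05, SE 0.24). MMP24 was lower in both H2O2 libraries, at 6.08 and 5.33 CPM against 8.99 and 6.80 CPM (−0.47, SE 0.26, adjusted p = 0.733). MMP16 (0.40, SE 0.48), MMP17 (0.32, SE 0.41) and MMP25 (−0.15, SE 0.32) had overlapping groups.

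The ratio of MMP14 to TIMP2, a protease and an inhibitor that form a complex at the cell surface, followed the letter more than the treatment. Per kb, MMP14 stood above TIMP2 in every library, by 1.64 times in mock H and 1.88 times in H2O2 H. The Q libraries had 3.94 times in mock and 3.47 times in H2O2. Both genes had log2 fold changes below 0, and their ratio overlapped between the treatments. Summed over the families, TIMP levels per kb were 0.366 and 0.352 of the MMP levels in mock and 0.324 and 0.322 in H2O2. MMP2, the gelatinase that this complex activates, had only 24 to 46 reads per library (−0.21, SE 0.56, adjusted p = 0.93), with values of 0.454 and 0.297 CPM in mock and 0.450 and 0.201 CPM in H2O2. The other gelatinase gene, MMP9, had 25 to 38 reads and levels of 0.258 and 0.314 CPM in mock and 0.372 and 0.301 CPM in H2O2 (0.23, SE 0.42, adjusted p = 0.895). Neither gelatinase separated the groups.

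MMP1 on chromosome 11, the main collagenase of fibroblasts, was near the limit of detection. It had 9 reads in mock H, 27 in mock Q, 2 in H2O2 H and 10 in H2O2 Q, or 0.0929, 0.223, 0.0196 and 0.0837 CPM. Within each group library Q was the higher, and in CPM both H2O2 values lay below both mock values, by a narrow gap between H2O2 Q and mock H. The log2 fold change was −1.58 (SE 0.88, adjusted p = 0.739), and leaving out 1 library at a time gave −2.94 (without H2O2 library Q) to −0.81 (without mock library Q), with −0.92 without H2O2 library H. With reads summed per group, 12 against 36, the ratio of H2O2 to mock was 0.328, with an exact 95% interval of 0.155 to 0.644 that covers counting error only. MMP21, a secreted MMP known for left-right patterning, had 87 mock and 39 H2O2 reads and a ratio of 0.441 (interval 0.294 to 0.650). Its log2 fold change was −1.15 (SE 0.53, adjusted p = 0.719). MMP19, a secreted MMP found in many tissues, measured 8.49 and 7.01 CPM in the mock pair, against 4.61 and 6.38 CPM in the treated pair (−0.49, SE 0.27). MMP28 did not separate the groups, at 1.19 and 1.08 CPM against 1.13 and 1.40 CPM.

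ADAM proteases differed in both directions. ADAM8 on chromosome 10, a sheddase best known from white blood cells, measured 10.9 CPM in mock library H and 12.0 in mock library Q. After H2O2 it measured 5.16 CPM in H and 6.67 in Q. The gap between the groups was wider than the spread within either, with a log2 fold change of −0.95 (SE 0.24, adjusted p = 0.717) and within-letter values of −1.07 and −0.84. ADAM15 on chromosome 1, a disintegrin protease of cell contacts, had 37.7 and 37.4 CPM in the mock pair, against 67.8 and 44.9 CPM in the treated pair. Its H2O2 libraries both lay above mock, although library H exceeded library Q (0.59, SE 0.25, adjusted p = 0.718), and the value was 0.26 without H2O2 library H. ADAM12 had 7 to 18 reads per library, and its groups overlapped (−0.47, SE 0.66).

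The main sheddases had estimates near 0. ADAM10 on chromosome 15, which cleaves NOTCH and cadherins, measured 158 and 181 CPM in the mock pair, against 166 and 168 CPM in the treated pair (−0.02, SE 0.19, adjusted p = 0.983). Its H2O2 values lay between the mock values. ADAM17 on chromosome 2, which releases TNF and ligands of the EGF receptor, had 35.3 and 59.4 CPM in the mock pair, against 43.0 and 51.5 CPM in the treated pair (−0.0019, SE 0.30, adjusted p = 0.999). Here too both H2O2 values lay inside the mock range. ADAM9 had 231 and 379 CPM in the mock pair, against 278 and 368 CPM in the treated pair (0.08, SE 0.32). Signs of ADAM10 and ADAM17 turned under other settings, and a missed threshold with 2 libraries does not show that their levels are equal.

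Among ADAMs without a working catalytic site, ADAM23, a receptor of neural adhesion, stood at 125 and 91.1 CPM in mock. Its H2O2 values were 151 and 140 CPM, both higher (0.42, SE 0.23, adjusted p = 0.732). ADAM22, its close relative, had 11.1 and 12.9 CPM in the mock pair, against 10.2 and 10.7 CPM in the treated pair (−0.20, SE 0.21). This separation of ADAM22 depended on the transcript row used. With the counts of all its rows summed the groups overlapped (−0.11, SE 0.20). They also overlapped on the deposited FPKM, at 67.9 and 115 in mock against 86.0 and 104 in H2O2. ADAM18, known from sperm, had 11 reads in mock H, 72 in mock Q, 3 in H2O2 H and 20 in H2O2 Q. Within each letter the H2O2 library was the lower, but H2O2 Q at 0.167 CPM exceeded mock H at 0.114 CPM (−1.82, SE 1.09, adjusted p = 0.75).

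**Figure D3:**
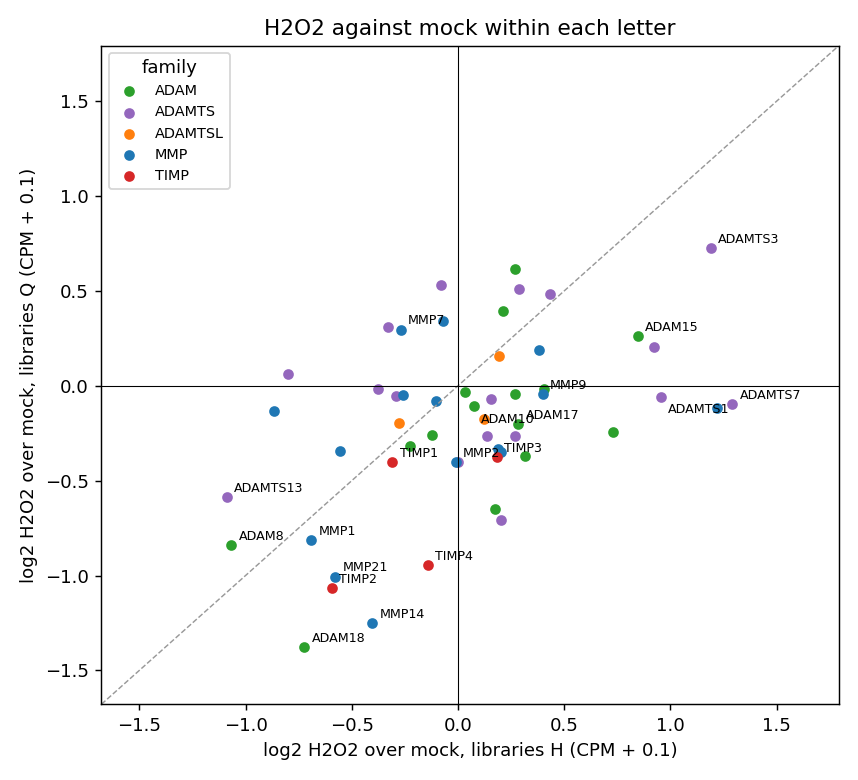
Log2 ratio of H2O2 to mock (CPM + 0.1) between the H libraries (horizontal) and between the Q libraries (vertical) for the 54 tested members, coloured by family, with the dashed line marking equal ratios. ADAM8, ADAMTS13 and TIMP2 lie in the lower left and ADAMTS3 in the upper right, while ADAMTS1 and ADAMTS7 are high on the H axis only.

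ADAMTS3 and ADAMTS7 had the largest upward differences of the tested members. ADAMTS3 on chromosome 4, which trims procollagens and activates VEGF-C, measured 4.61 CPM in mock library H and 7.02 in mock library Q. The H2O2 libraries had 10.6 CPM in H and 11.7 in Q, both above either mock value. The log2 fold change was 0.94 (SE 0.29, adjusted p = 0.717), with 1.19 within H and 0.72 within Q. ADAMTS2, the related procollagen protease, had 0.176 to 0.231 CPM and overlapping groups.

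ADAMTS13 on chromosome 9, the liver-made protease that cuts von Willebrand factor, ran the other way. It stood at 29.4 CPM in mock H, 17.4 in mock Q, 13.8 in H2O2 H and 11.6 in H2O2 Q. Its H2O2 values were both under mock (−0.88, SE 0.31, adjusted p = 0.717), with −1.09 within H and −0.59 within Q. Its value was −0.46 without mock library H and −1.22 without mock library Q. In the RefSeq table it overlaps REXO4.

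ADAMTS1 and ADAMTS7 were high in 1 library. ADAMTS1 on chromosome 21, which cleaves proteoglycans, had 17.5 and 18.5 CPM in mock and 17.8 CPM in H2O2 library Q, against 34.05 CPM in H2O2 library H (0.52, SE 0.34, adjusted p = 0.763). ADAMTS7 on chromosome 15, a protease of cartilage and vessel wall with related pseudogenes whose reads may be mixed with its own, had 3.12 and 3.84 CPM in mock and 3.59 CPM in H2O2 library Q, against 7.77 CPM in H2O2 library H (0.71, SE 0.42, adjusted p = 0.75). Without H2O2 library H the values were −0.02 for ADAMTS1 and 0.04 for ADAMTS7. ADAMTS10, which works on fibrillin, was higher in both H2O2 libraries, at 6.19 and 5.37 CPM against 4.56 and 3.81 CPM (0.47, SE 0.25). ADAMTS9 (0.49, SE 0.38), ADAMTS20 (0.24, SE 0.27) and ADAMTS6 (−0.40, SE 0.29) overlapped between the groups. The 7 proteoglycan-cleaving ADAMTS had a median of 0.07, with 3 lower and 4 higher. The 3 tested ADAMTS-like genes ran from −0.26 for ADAMTSL2 to 0.18 for ADAMTSL4, with SEs larger than these values.

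The letter of the library separated some members more than the treatment did. In both groups library Q stood at least 2-fold above library H for 6 members (11.1%, beside 1.99% of all genes tested): ADAM18, ADAM28, MMP7, MMP10, TIMP1 and TIMP4. It stood at least 2-fold below for 2 members (3.7%, beside 0.913%): ADAMTSL4 and MMP11. These members were picked by that difference, so their values are a description with no test. Depth, culture and preparation cannot be told apart from the letter. The summed hepatocyte markers also differed by letter, as given above, and their part in this pattern was not tested.

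MMP7, the matrilysin of epithelia, had 26 reads in mock H, 607 in mock Q, 21 in H2O2 H and 738 in H2O2 Q. Its levels were 0.268 and 5.01 CPM in mock and 0.206 and 6.17 CPM in H2O2, so that Q exceeded H by 18.7 times and 30.0 times. Between the treatments its log2 fold change was 0.27 (SE 1.69). MMP10, a stromelysin, had 14 and 110 reads in mock and 13 and 102 in H2O2, or 6.29 and 6.71 times more in Q. ADAM28, a sheddase of epithelia and lymphocytes, was 4.79 and 4.55 times higher in Q, at 0.495 and 2.37 CPM in the mock pair, against 0.509 and 2.32 CPM in the treated pair. In the opposite direction MMP11, a stromelysin usually of tumour stroma, had 7.61 and 2.91 CPM in the mock pair, against 8.68 and 2.28 CPM in the treated pair. ADAMTSL4, an ADAMTS-like gene on chromosome 1 that acts in fibrillin matrix, had 25.9 and 10.8 CPM in the mock pair, against 29.6 and 12.1 CPM in the treated pair.

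**Figure D4:**
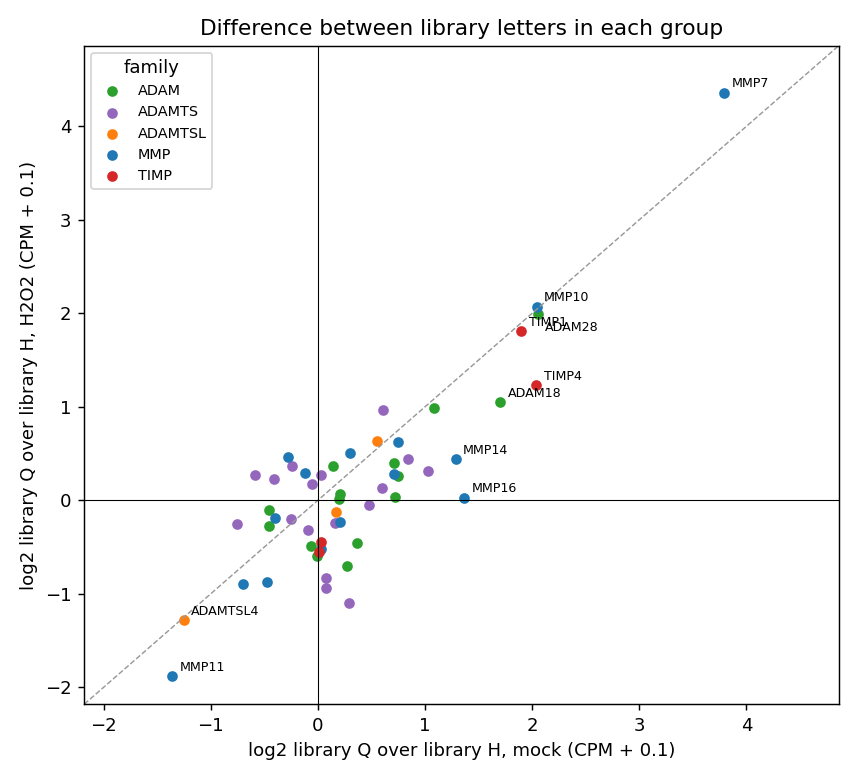
Log2 ratio of library Q to library H (CPM + 0.1) in mock (horizontal) and in H2O2 (vertical) for the 54 tested members, with the dashed line marking equal ratios. MMP7, MMP10, ADAM28 and TIMP1 lie near that line far to the upper right, MMP11 and ADAMTSL4 to the lower left, and MMP14 and MMP16 differ by letter mainly in mock.

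The stretches just before the start sites of the members ordered by letter are shown because these genes differed between the library letters in both groups. They are RefSeq sequences of GRCh38.p14, the last 100 bases before the annotated start, each in the direction of its own gene. Entries for 43 of the 70 members were in the promoter table, and MMP1, TIMP2, ADAM18 and ADAM28 had none. Capitals mark TGANTCA, a loose form of the AP-1 motif in which N is any base, and TATAAA, the TATA box. Both were searched on both strands, and the motifs do not overlap here. MMP7 lies at chr11:102530748-102530847 and MMP10 at chr11:102780629-102780728, both on the minus strand. TIMP1 lies at chrX:47582336-47582435 (plus) and TIMP4 at chr3:12158913-12159012 (minus). MMP11 lies at chr22:23772749-23772848 (plus) and ADAMTSL4 at chr1:150549308-150549407 (plus).
MMP7: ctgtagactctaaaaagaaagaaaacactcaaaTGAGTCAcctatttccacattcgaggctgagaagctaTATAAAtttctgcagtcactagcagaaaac
MMP10: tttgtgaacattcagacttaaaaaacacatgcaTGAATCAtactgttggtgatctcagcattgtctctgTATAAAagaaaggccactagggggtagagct
TIMP1: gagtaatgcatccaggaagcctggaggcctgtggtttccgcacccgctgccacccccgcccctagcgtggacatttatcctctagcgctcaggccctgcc
TIMP4: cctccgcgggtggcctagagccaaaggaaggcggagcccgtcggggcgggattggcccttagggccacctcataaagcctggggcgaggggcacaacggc
MMP11: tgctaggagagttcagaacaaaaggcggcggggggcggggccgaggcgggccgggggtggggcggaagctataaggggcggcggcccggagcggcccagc
ADAMTSL4: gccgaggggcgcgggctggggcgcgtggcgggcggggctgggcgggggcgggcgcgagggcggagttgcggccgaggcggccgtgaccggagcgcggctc

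MMP7 and MMP10 share a layout, with TGANTCA beginning at −67 in both and TATAAA at −30 and −31, counted from −1 at the last base before the start. The other 4 stretches hold neither motif in these exact letters, and other forms were not searched. Over the 250 bases before the start, TGANTCA was found in 4 of the 43 members (9.3%, beside 6.6% of 27305 genes) and TATAAA in 8 (18.6%, beside 11.1%). Both were found in 3 members, MMP7, MMP10 and MMP20, and in 1.11% of all genes. A match of letters is a description and does not show that a factor binds.

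MMP7, MMP10 and MMP1 belong to a row of 9 MMP genes on chromosome 11, in the map order MMP7, MMP20, MMP27, MMP8, MMP10, MMP1, MMP3, MMP12 and MMP13. Together they had 62 reads in mock H, 793 in mock Q, 57 in H2O2 H and 903 in H2O2 Q. MMP7 gave 76.5% and 81.7% of these in the Q libraries and 41.9% and 36.8% in the H libraries. MMP3, which activates other MMPs, had only 2 or 3 reads in each library. MMP12 had 3 and 16 reads in mock and 3 and 9 in H2O2, and MMP13 had 7 and 10 in mock and 4 and 18 in H2O2. MMP8, the neutrophil collagenase, had 0 and 7 reads in mock and 8 and 16 in H2O2. Its summed ratio of H2O2 to mock was 3.37 (exact 95% interval 1.41 to 9.26, counting error only), and it was too low to be tested.

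**Figure D5:**
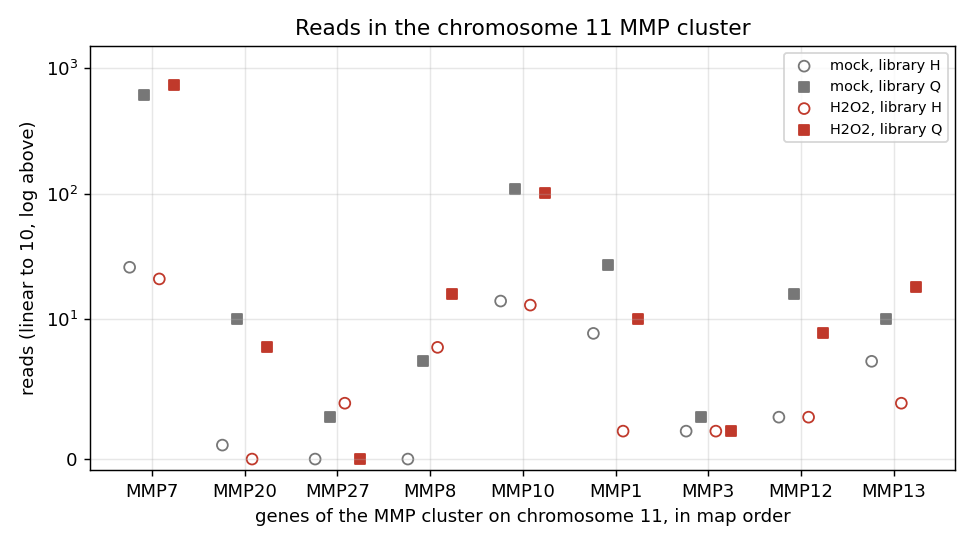
Reads per library for the 9 MMP genes of chromosome 11 in map order, on an axis that is linear up to 10 reads and logarithmic above. MMP7 and MMP10 stand apart by letter, with 607 and 738 against 26 and 21 reads for MMP7, and the other genes hold few reads in every library.

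The remaining members under the read limit were ADAM2, ADAM7, ADAM20, ADAM29, ADAM30, ADAMTS12, ADAMTS14, ADAMTSL1, ADAMTSL3, MMP26 and MMP27. ADAM2, ADAM20, ADAM29 and ADAM30 are known mainly from testis. ADAMTS14, a procollagen protease, had 11 mock and 25 H2O2 reads, a ratio of 2.23 with an exact 95% interval of 1.06 to 5.03. ADAM20 had 22 and 7 reads, a ratio of 0.313 (0.113 to 0.758). The intervals cover counting error only.

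Genes that act around these proteases were read from 6 lists, and 0 of their 91 tested genes passed edgeR at 5% in either direction, with 8 at an unadjusted p under 0.05, a threshold that 6.86% of all genes met. DESeq2 called 1 of them (ANPEP). Over all genes tested 52.8% were lower by sign, the share to set beside the counts of these lists. Of 15 tested genes of proenzyme activation and the plasminogen system, 8 were lower and 7 higher. The urokinase receptor gene PLAUR (−1.01, SE 0.53) and the serine protease gene HPN (−1.12, SE 0.66) differed downward with overlapping groups. Among 14 other inhibitors and surface partners 10 were lower, with a median of −0.44. The largest differences were in CD44 (−2.43, SE 1.03), which anchors MMPs at the surface, and TFPI2 (−1.26, SE 1.17). Both had overlapping groups. CD44 stood at 0.640 CPM in mock H and 5.19 in mock Q, against 0.323 in H2O2 H and 0.753 in H2O2 Q.

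Of the 14 carriers and partners of ADAM10 and ADAM17, 9 were lower and 5 higher, with a median of −0.08 and no difference of 1 log2 unit or more. Of 10 tested relatives outside the name rule 6 were lower. The aminopeptidase gene ANPEP measured 77.2 and 89.4 CPM in the mock pair, against 29.3 and 36.4 CPM in the treated pair (−1.34, SE 0.21, adjusted p = 0.717), with groups far apart relative to their spread. ANPEP had an adjusted p of 0.00354 with DESeq2. By sign 19 of 24 known substrates were lower, with a median of −0.42, where 52.8% of all genes tested were lower. Without overlap between the groups 8 of the 24 were lower and 1 was higher, beside 21.4% and 18.2% of all genes. Of 14 tested AP-1 and ETS factors, regulators that act on MMP promoters, 6 were lower and 8 higher. ATF3 measured 15.6 and 42.5 CPM in the mock pair, against 85.7 and 86.7 CPM in the treated pair (1.57, SE 0.48), and EHF differed by −1.34 (SE 0.30). FOS differed by 1.299 (SE 0.58) with overlapping groups, at 16.7 and 10.1 CPM in mock H and Q and 49.8 and 16.3 CPM after H2O2.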

How the data were processed

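Per the labels, RNA of mock- and H2O2-treated Huh7 cells was made into TruSeq libraries. The submitters' processing notes list CASAVA, Cuffdiff, TopHat 1.3.3 and Bowtie 0.12.2 beside the builds mm8, hg19 and GRCh37, with no roles; no source used here names the counting program or its use of strand. The deposited tables hold, per the file headers, a whole read count and an FPKM for each transcript model. Isoform rows repeat reads, so 1 row per gene was used (totals 103851326 to 113082498 per library, above the mapped mates; how a read is counted is not stated). The deposited FPKM does not follow count over length and served for alternatives only.

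Genes with a mean of at least 10 reads were kept, scaled by TMM and tested with edgeR 4.0.16 (R 4.3.3; quasi-likelihood, two-sided, treatment only, 2 residual degrees of freedom), with Benjamini-Hochberg adjustment over 27263 genes. SEs derive from the F statistic. Alternatives used DESeq2 1.42.0, limma 3.58.1, other filters and scalings, the letter as a block, and each library left out. The fit was tested on simulated data. Within-letter ratios used CPM + 0.1. Values with full statistics are MMP1, the TIMPs, ADAM10, ADAM17, MMP2, MMP9, MMP14 and members with mean CPM of at least 0.5 and a log2 difference of at least 0.5; other genes of fixed lists needed a log2 difference of 1. MMP7, MMP8, MMP10, MMP11, MMP21, ADAM18, ADAM20, ADAM28, ADAMTS14, ADAMTSL4, and other members given as examples were chosen after their values were seen. Members and lists were chosen with earlier results of these data known.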

Additional observations from a re-analysis of the deposited data

Results flagged for a closer look

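For 7 members with a mean of at least 0.5 CPM the H2O2 effect ran in opposite directions between the 2 letters, by at least 0.2 log2 units on each side. With 1 library per letter and group this difference was not tested. The log2 ratio within H minus that within Q was 0.49 for ADAM17, 0.68 for ADAM19, 0.97 for ADAM32, 0.91 for ADAMTS19, −0.64 for ADAMTS5, 0.55 for MMP15 and −0.56 for MMP7. For ADAM32, an ADAM of the male germ line, the ratios were 0.73 within H and −0.24 within Q. For ADAM19, a sheddase of neuregulin, they were 0.32 and −0.37.

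A second transcript row of MMP28, not used above because its total is lower, had 32 reads in H2O2 library H, against 4 and 0 reads in mock libraries H and Q and 1 read in H2O2 library Q. The row that was used had 115 and 131 reads in mock and 115 and 167 in H2O2.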

How the results depend on the processing

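No member was called under any of the 15 alternatives, which include DESeq2 (5 members at an unadjusted p under 0.05) and limma on FPKM with a pseudocount of 1 (5 members, 9.26%, beside 5.95% of all genes). Over all genes 141 were called with DESeq2, 9 with no filter beyond 1 read and 57 with the letter as a replicate block, against 0 otherwise. The letters name no animal, culture or batch. Among the related genes, ANPEP had an adjusted p of 0.0393 in the block fit. In the block fit 11 members had an unadjusted p under 0.05 (20.4%, beside 19.2% of all genes), and adjusted p was 0.103 for ADAM8, 0.106 for TIMP2, 0.108 for ADAMTS3 and 0.113 for ADAMTS13, with highest values over the alternatives of 0.9999 for each. Deviations of the H libraries from their group means correlated between the groups at r = 0.46 over 27263 genes. With 1 library left out, 28 to 40 members lay apart (51.9% to 74.1%, beside 60.9% to 76.7% of all genes), a count raised by having fewer libraries to separate.

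Of 236 values of the 16 named members, 215 kept their direction, and 9 members never turned (ADAM8, ADAM15, ADAMTS3, ADAMTS7, ADAMTS13, MMP1, MMP9, MMP14 and TIMP2). ADAM10 was 0.010 with DESeq2 and 0.034 on FPKM with either pseudocount; ADAM17 was 0.014 on summed rows, 0.030 with DESeq2, 0.061 and 0.062 on FPKM, 0.0085 with no filter and 0.040 with the block; TIMP3 was 0.051 and 0.052 on FPKM. Leaving out 1 library gave −0.12 to 0.080 for ADAM10, −0.33 to 0.42 for ADAM17, −0.021 to 0.93 for ADAMTS1, −0.90 to 0.27 for MMP2, −1.74 to 0.97 for TIMP1, −0.37 to 0.19 for TIMP3 and −1.515 to 0.62 for TIMP4. The causes were not tested. MMP1 passed neither the filter of 100 mean reads nor the one on FPKM, and MMP2 and MMP9 did not pass the former, so these have no value there. Depth limits members with few reads, such as MMP1, MMP2, MMP9 and the 16 untested genes.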
